A study of Homo sapiens with 9 samples.

Results

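The genes described here are the SLC25 mitochondrial carriers, taken as every gene in the deposited expression table whose symbol is SLC25A followed by a number, with SLC25A20 left out. The rule found 47 of the 27315 genes in the table, and 37 of these were expressed highly enough to be tested, out of 13165 genes tested in all. They were measured by sequencing polyadenylated RNA of MDA-MB-468, a cell line of human triple-negative breast cancer. All 9 libraries came from cells infected with a lentiviral pLKO.1 hairpin vector: 3 carried a scrambled control hairpin, 3 the hairpin sh1 against BBOX1 and 3 the hairpin sh6 against BBOX1. BBOX1 is gamma-butyrobetaine hydroxylase, a 2-oxoglutarate-dependent enzyme that makes carnitine, and the comparisons ask how carrier transcripts differ when its RNA is lowered. Vector, infection and line are shared by all groups. The labels give hairpin target sequences under names that match the sample titles for sh1 and not for sh6. Which target sequence sh6 has could therefore not be worked out. Whether a group's 3 libraries are separate cultures is not stated in the labels, so a p-value here speaks only of the spread among these libraries, which may be technical. In RNA of whole cultures, fewer cells of a type and less RNA per cell cannot be told apart.

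Carriers of this family mostly sit in the inner mitochondrial membrane, which is otherwise tight to charged metabolites. Each is built from repeats of a paired membrane helix and usually exchanges a substrate on one side for another on the other, such as ADP for ATP, malate for citrate or aspartate for glutamate. In this way the family links oxidative phosphorylation, the malate-aspartate shuttle, fatty acid synthesis, and the supply of iron, glutathione and cofactors to the matrix. The name of the family as inner membrane carriers does not cover every member, since SLC25A17 is known as a peroxisomal protein and SLC25A46 as a protein of the outer mitochondrial membrane. Location was not measured in these libraries.

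The libraries held between 15733056 and 19740568 recovered reads. BBOX1 itself had normalised counts of 2703, 2785 and 2360 in the controls, 324, 346 and 328 with sh1 and 606, 618 and 581 with sh6. The knockdown was 7.87-fold with sh1 and 4.35-fold with sh6, with no overlap between groups. An exact two-sided permutation test gave p = 0.1 for each hairpin, the smallest p that 3 against 3 libraries allow. The labelled line was checked against its markers: KRT5, KRT17 and EGFR, basal epithelial genes, were abundant, PGR was at 0 and ESR1 had a mean normalised count of 227 in the controls. Of 14 fibroblast, leucocyte and endothelial markers, COL1A1, CD68 and KDR passed the filter on low values. The summed count of the 5 fibroblast markers was 315 to 433 in the controls, 281 to 342 with sh1 and 301 to 384 with sh6. That of the 5 leucocyte markers was 197 to 225 in the controls, 73.6 to 91.6 with sh1 and 131 to 138 with sh6. For the 4 endothelial markers it was 237 to 267 in the controls, 86.2 to 116 with sh1 and 88.4 to 111 with sh6. PTPRC and CD3E, defining leucocyte genes, did not pass the filter, and the part of these markers in the carrier results was not tested.

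More carriers rose than fell with sh1, whereas with sh6 the calls were more evenly divided. With sh1, 18 carriers rose and 5 fell, so that 62.2% of the 37 tested members were called at an adjusted p under 0.05 in limma, a linear model fitted to all genes. Of all genes tested, 58.9% were called with sh1, 29.0% as higher and 30.0% as lower. With sh6, 15 carriers rose and 12 fell, 73.0% of those tested, beside 67.8% of all genes, 34.2% as higher and 33.6% as lower. The shares of carriers called were thus near the background of a dataset in which most genes were called. The median log2 change of the tested carriers was 0.17 with sh1 and 0.04 with sh6, against 0.00095 and 0.0058 over all genes.

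With both hairpins, 12 carriers rose (among them SLC25A3, SLC25A4, SLC25A11, SLC25A13, SLC25A15, SLC25A21, SLC25A22, SLC25A23, SLC25A25, SLC25A29 and SLC25A38) and 3 fell (SLC25A12, SLC25A27 and SLC25A37). Calls in the same direction with both hairpins made up 38.3% of all genes, 18.9% as higher and 19.4% as lower. These comparisons share the 3 control libraries, so the overlap is not a test. With no filter on low values, 8 of 47 carriers were called with both, 7 higher and 1 lower. SLC25A13, SLC25A15, SLC25A21, SLC25A22, SLC25A23, SLC25A27 and SLC25A37 each lost a call or both. In that fit 6534 of 27315 genes were called with sh1 and 8171 with sh6, against 7760 and 8922 of 13165 with the filter. In 13 of the 15, each of the 6 hairpin libraries was beyond the controls on the same side, the exceptions being SLC25A23 and SLC25A37; it also held for SLC25A5, making 14 of the 37 tested carriers (37.8%), beside 40.3% of all genes. SLC25A46 was called in opposite directions, a pattern found in 6.40% of all genes. SLC25A26, SLC25A43 and SLC25A51, called lower with sh6, were also called higher with sh1 under some alternatives, given with each gene.

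Changes of the mean of both hairpins against the control were called for 25 carriers, 16 higher and 9 lower. Of all genes, 65.5% were called, 32.3% as higher and 33.1% as lower. With the values centred on each library's median, 18 carriers were called higher and 6 lower. Over all 13165 genes tested, that centring gave 4583 higher and 4070 lower, against 4256 and 4363 without it. Between the hairpins, 22 carriers differed, 5 of them higher and 17 lower with sh6, beside 59.7% of all genes, 30.8% higher and 28.9% lower. A call with sh1 alone that was also called between the hairpins was made for 7 carriers (11.1% of all genes), and the same with sh6 alone for 11 carriers (18.9% of all genes). SLC25A17, SLC25A36 and SLC25A39 were called with neither hairpin, as were 17.9% of all genes. Sizes were modest: 11 carriers changed by at least 1.5-fold with either hairpin, 29.7% of those tested against 34.9% of all genes, and SLC25A37 was the single carrier to change by at least 2-fold, against 13.5% of all genes.

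**Figure D1:**
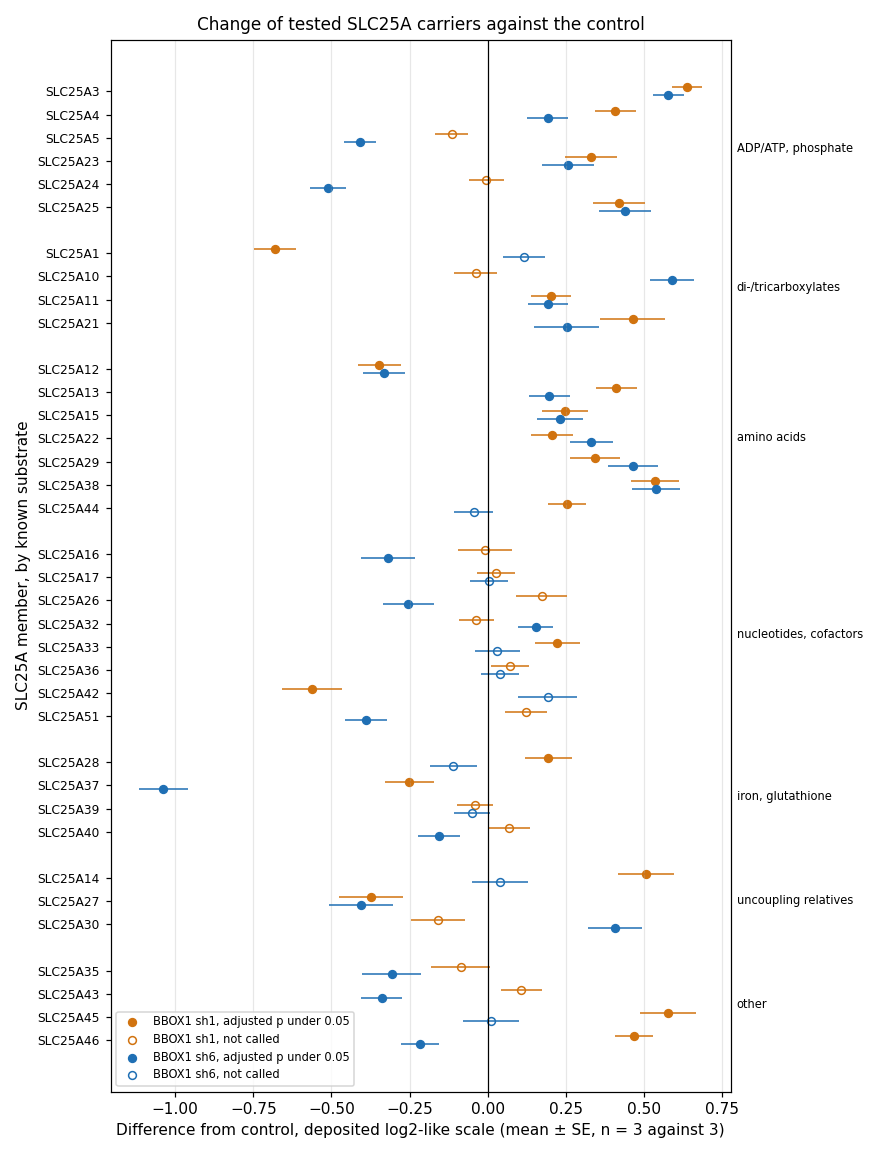
Log2 change of 36 tested carriers (difference of deposited log2 values, with its standard error from limma) with sh1 and with sh6 against the 3 controls, arranged by role; filled points were called at an adjusted p under 0.05. Amino acid carriers lie mostly to the right of 0 with both hairpins, and SLC25A37 with sh6 lies farthest to the left at -1.04.

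Expressed per kilobase of transcript, so that genes can be compared, SLC25A5 had the highest level of the carriers with a usable value. SLC25A5, an ADP/ATP carrier, had 10281 normalised counts per kilobase in the controls, 44.5% of the summed level of the carriers, followed by SLC25A3, the phosphate carrier, with 2677 (11.6%), SLC25A39, a glutathione carrier, with 2131, SLC25A24, an ATP-Mg/phosphate carrier, with 726, and SLC25A1, the citrate carrier, with 669. The share of SLC25A5 was 38.8% with sh1 and 35.1% with sh6, while that of SLC25A3 was 17.1% and 18.2%. SLC25A6, another ADP/ATP carrier, enters this sum at 0, a value that may not be its level, so each share is an upper limit in that respect. These lengths are the median of each gene's principal transcripts. With the longest coding transcript instead, SLC25A3 took rank 5 with 668 counts per kilobase, so its place rests on the length chosen, and the shares shift with it. Reads of SLC25A5 and SLC25A3 can also be split with processed pseudogene copies, which makes their level uncertain.

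**Figure D2:**
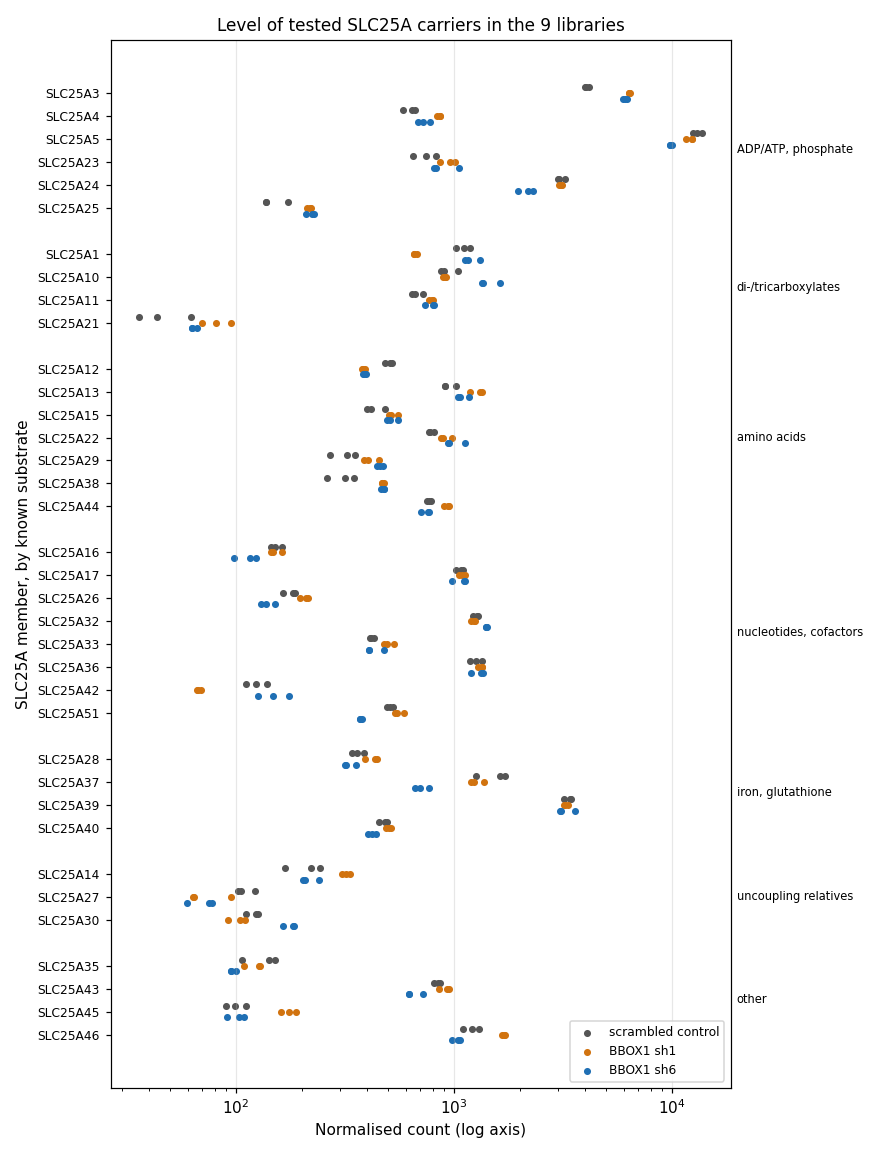
Normalised count of 36 tested carriers in each of the 9 libraries on a log axis, coloured by group. Levels span from 35.8 counts for SLC25A21 to 13803 for SLC25A5, and differences between groups are small beside the differences between genes.

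Promoter sequences are shown for 3 carriers that rose with both hairpins and for SLC25A46, which moved in opposite directions, because each holds one of the motifs searched. They are the 250 bases before the RefSeq start of the gene in GRCh38.p14, written 5′ to 3′ on the strand of the gene, with motif matches in capitals. SLC25A3 is on the plus strand at chr12:98593436-98593685 and holds the NRF1 core, read on the opposite strand. SLC25A38 is on the plus strand at chr3:39383120-39383369 and holds CACGTG. SLC25A11 is on the minus strand at chr17:4940047-4940296 and holds the CARE core and the NRF1 core, both read on the opposite strand. SLC25A46 is on the plus strand at chr5:110738757-110739006 and holds CACGTG.
SLC25A3: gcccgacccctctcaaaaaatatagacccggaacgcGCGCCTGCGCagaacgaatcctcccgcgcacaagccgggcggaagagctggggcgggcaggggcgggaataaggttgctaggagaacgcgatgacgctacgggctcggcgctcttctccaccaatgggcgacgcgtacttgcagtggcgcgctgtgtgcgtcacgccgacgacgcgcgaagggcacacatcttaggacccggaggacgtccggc
SLC25A38: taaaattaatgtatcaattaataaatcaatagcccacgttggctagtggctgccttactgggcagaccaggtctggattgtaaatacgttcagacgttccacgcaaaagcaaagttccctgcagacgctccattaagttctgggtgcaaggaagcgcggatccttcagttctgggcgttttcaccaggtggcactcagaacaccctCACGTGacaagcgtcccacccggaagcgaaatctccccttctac
SLC25A11: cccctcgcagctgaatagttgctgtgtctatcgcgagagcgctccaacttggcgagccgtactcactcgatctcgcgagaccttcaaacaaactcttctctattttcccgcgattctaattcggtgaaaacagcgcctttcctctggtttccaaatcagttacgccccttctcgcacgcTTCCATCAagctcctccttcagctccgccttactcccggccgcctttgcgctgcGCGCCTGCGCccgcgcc
SLC25A46: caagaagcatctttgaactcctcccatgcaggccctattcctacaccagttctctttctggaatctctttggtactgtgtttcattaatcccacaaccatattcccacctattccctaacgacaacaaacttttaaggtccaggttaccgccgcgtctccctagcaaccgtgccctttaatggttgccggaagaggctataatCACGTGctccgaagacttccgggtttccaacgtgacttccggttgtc

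Of the 47 carriers, 39 had a promoter in the RefSeq table, a window of 300 bases from 250 before to 50 after the start, and both strands were searched. A gene was counted if any of its promoters matched. The E-box CACGTG, a site bound by factors such as MYC and USF, was in 9 of the 39 (23.1%) and in 8.77% of all 27305 genes of the promoter table. Among tested carriers with a promoter it was in 8 of 31 (25.8%), beside 12.4% of the tested genes with a promoter. Counted by single promoters it was in 18.4% of the 49 of the carriers and in 7.26% of all 35116. Among the 11 carriers higher with both hairpins that had a promoter, 3 held it. The core site of NRF1, a factor of mitochondrial gene promoters, was in 5 of the 39 genes (12.8%), beside 6.98% of all genes. By single promoters it was in 10.2% and 5.78%. Among tested carriers it was in 3 of 31 (9.68%), beside 13.3% of tested genes. The core TGATGNAA, searched for the ATF4 and CHOP element CARE, was in 1 of the 39 genes (2.56%), beside 4.46% of all genes. By single promoters it was in 2.04% and 3.62%. Among tested carriers it was in 1 of 31 (3.23%), beside 2.58% of tested genes. No motif overlapped another in the sequences printed. A match describes the letters of the window and is not evidence of binding.

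Exchange of ADP, ATP and phosphate is the best known task of the family. Of the 9 carriers of this group 6 were tested, and 4 of them (SLC25A3, SLC25A4, SLC25A23 and SLC25A25) rose with both hairpins, while SLC25A5 and SLC25A24 fell with sh6. Of all genes, 18.9% were called higher with both hairpins and 33.6% lower with sh6. The group's median log2 change was 0.37 with sh1 and 0.22 with sh6, against 0.00095 and 0.0058 over all genes. SLC25A3, which brings phosphate into the matrix for ATP synthesis and also carries copper, had normalised counts of 4030, 4186 and 3977 in the controls, 6324, 6405 and 6340 with sh1 and 6208, 6096 and 5985 with sh6. Every hairpin library was far above every control, and the hairpin groups lay close together. The rise was 1.56-fold with sh1 and 1.5-fold with sh6, or 0.64 ± 0.0493 (SE, n = 3 per group) and 0.58 on the log2 scale, with adjusted p = 1.73e-12 and 1.06e-11 in limma; the hairpins were not called apart (adjusted p = 0.304).

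The ADP/ATP carriers SLC25A4 and SLC25A5 moved in opposite directions. SLC25A4, the heart and muscle form, had 643, 582 and 664 normalised counts in the controls, 865, 866 and 833 with sh1 and 777, 722 and 684 with sh6. The 3 groups did not overlap, and sh1 was the highest. The rise was 1.36-fold with sh1 (log2 change 0.41, adjusted p = 3.68e-06) and 1.16-fold with sh6 (0.19, adjusted p = 0.0113), and the hairpins differed by -0.22 (adjusted p = 0.00555); the sh6 call was lost without control replicate 2 (adjusted p = 0.0793) or sh6 replicate 1 (0.0600). SLC25A5, the form of proliferating cells, had 12985, 13803 and 12506 in the controls, 11582, 12338 and 12318 with sh1 and 9803, 9773 and 9969 with sh6. All sh1 libraries lay below the controls and all sh6 libraries below those. The fall with sh6 was 1.33-fold (log2 change -0.41, adjusted p = 4.12e-08), and the hairpins differed by -0.29 (adjusted p = 1.54e-05). With sh1 the change of -0.12 had adjusted p = 0.0553, and it was called without control replicate 3 (0.0149), without sh6 replicate 1 (0.0451), with the replicate number as a block (0.0386), a robust variance prior (0.0490), array weights (0.0148) and voom (0.0436). SLC25A6, the other common ADP/ATP carrier, is described among the members that could not be tested.

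Calcium-regulated ATP-Mg/phosphate carriers set the adenine nucleotide pool of the matrix, and their transcripts also diverged. SLC25A25 had normalised counts of 173, 137 and 137 in the controls, 211, 222 and 219 with sh1 and 224, 210 and 229 with sh6. Both hairpin groups were above every control, by 1.46-fold and 1.48-fold (log2 changes 0.42 and 0.44, SE 0.0841, adjusted p = 7.98e-05 and 3.34e-05). The antisense gene SLC25A25-AS1 rose too, from a mean of 38.6 to 59.8 with sh1 and 69.9 with sh6 (log2 changes 0.33 and 0.46, adjusted p = 0.00591 and 0.00016). No source used here says whether strand was counted, so reads of this antisense pair may not be told apart. SLC25A23 had 741, 828 and 649 in the controls, 1009, 957 and 863 with sh1 and 1057, 810 and 825 with sh6. Its sh6 libraries overlapped the controls, and the sh6 call (log2 change 0.26, adjusted p = 0.00731) was lost without control replicate 3 (0.0572) or sh6 replicate 1 (0.121), while the change with sh1 was 0.33 (adjusted p = 0.00102). With no filter on low values neither call held (0.121 with sh1 and 0.211 with sh6). The third paralogue, SLC25A24, had 3041, 3246 and 3013 in the controls, 3149, 3023 and 3096 with sh1 and 1974, 2196 and 2307 with sh6. Control and sh1 libraries were intermixed, and all sh6 libraries were lower, 1.44-fold below the control (log2 change -0.51, adjusted p = 3.03e-09) and as far below sh1 (-0.51, adjusted p = 5.87e-09).

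Of 9 amino acid carriers 7 were tested. With sh1, 6 rose and 1 fell, and with sh6, 5 rose and 1 fell, beside calls for 58.9% and 67.8% of all genes. The group's median log2 change was 0.25 with sh1 and 0.23 with sh6. SLC25A38, which imports glycine for the first step of haem synthesis, had normalised counts of 316, 262 and 350 in the controls, 468, 469 and 480 with sh1 and 462, 478 and 480 with sh6. All 6 hairpin libraries fell within a narrow band above the controls, a 1.53-fold rise with either hairpin (log2 changes 0.54 and 0.54, SE 0.0772, adjusted p = 5.81e-07 and 3.81e-07). SLC25A29, a carrier of basic amino acids, had 324, 269 and 353 in the controls, 388, 454 and 402 with sh1 and 470, 456 and 442 with sh6. Again no hairpin library overlapped the controls, with rises of 1.31-fold and 1.45-fold (log2 changes 0.34 and 0.47, adjusted p = 0.000516 and 7.1e-06).

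The aspartate-glutamate carriers, which drive the malate-aspartate shuttle, were split: SLC25A12 (aralar) fell and SLC25A13 (citrin) rose. SLC25A12 had normalised counts of 522, 483 and 511 in the controls, 391, 379 and 383 with sh1 and 394, 388 and 384 with sh6. The 6 hairpin libraries were nearly alike and all below the controls, by 1.31-fold and 1.30-fold (log2 changes -0.35 and -0.33, SE 0.0682, adjusted p = 6.32e-05 and 8.21e-05). SLC25A13 had 910, 908 and 1026 in the controls, 1319, 1183 and 1345 with sh1 and 1040, 1071 and 1176 with sh6. Both hairpin groups were above the controls, with sh1 the highest. The rise was 1.35-fold with sh1 (log2 change 0.41, adjusted p = 2.74e-06) and 1.16-fold with sh6 (0.20, adjusted p = 0.00884), the latter not called without sh6 replicate 3 (0.0702), and the hairpins differed by -0.21 (adjusted p = 0.00543). With no filter on low values the sh6 call (0.0933) and the difference between hairpins (0.0813) were lost. Per kilobase of transcript, SLC25A12 stood at 170 normalised counts in the controls, 129 with sh1 and 131 with sh6, and SLC25A13 at 302, 409 and 349. SLC25A13 was therefore the higher of the pair in every group.

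Other amino acid carriers rose by less. SLC25A15, the ornithine-citrulline carrier of the urea cycle, had 416, 401 and 485 normalised counts in the controls, 517, 504 and 553 with sh1 and 509, 496 and 551 with sh6, and its groups did not overlap the controls (log2 changes 0.25 and 0.23, adjusted p = 0.00468 and 0.00647). Neither call of SLC25A15 held with no filter on low values (0.05002 and 0.0531). SLC25A22, a glutamate carrier, had 812, 775 and 767, then 870, 982 and 892 with sh1 and 1130, 943 and 947 with sh6, again without overlap. Its log2 changes were 0.20 (adjusted p = 0.0105, but 0.0864 without sh1 replicate 2 and 0.114 with no filter on low values) and 0.33 (adjusted p = 8.13e-05). SLC25A44, a carrier of branched-chain amino acids, had 771, 753 and 787 in the controls, 905, 944 and 945 with sh1 and 760, 706 and 769 with sh6. Its sh1 libraries stood alone: the change with sh1 was 0.25 (adjusted p = 0.000666), that with sh6 -0.05 (0.522), and the difference between hairpins -0.30 (9.82e-05). The remaining 2 carriers of the group, SLC25A2 and SLC25A18, did not pass the filter.

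**Figure D3:**
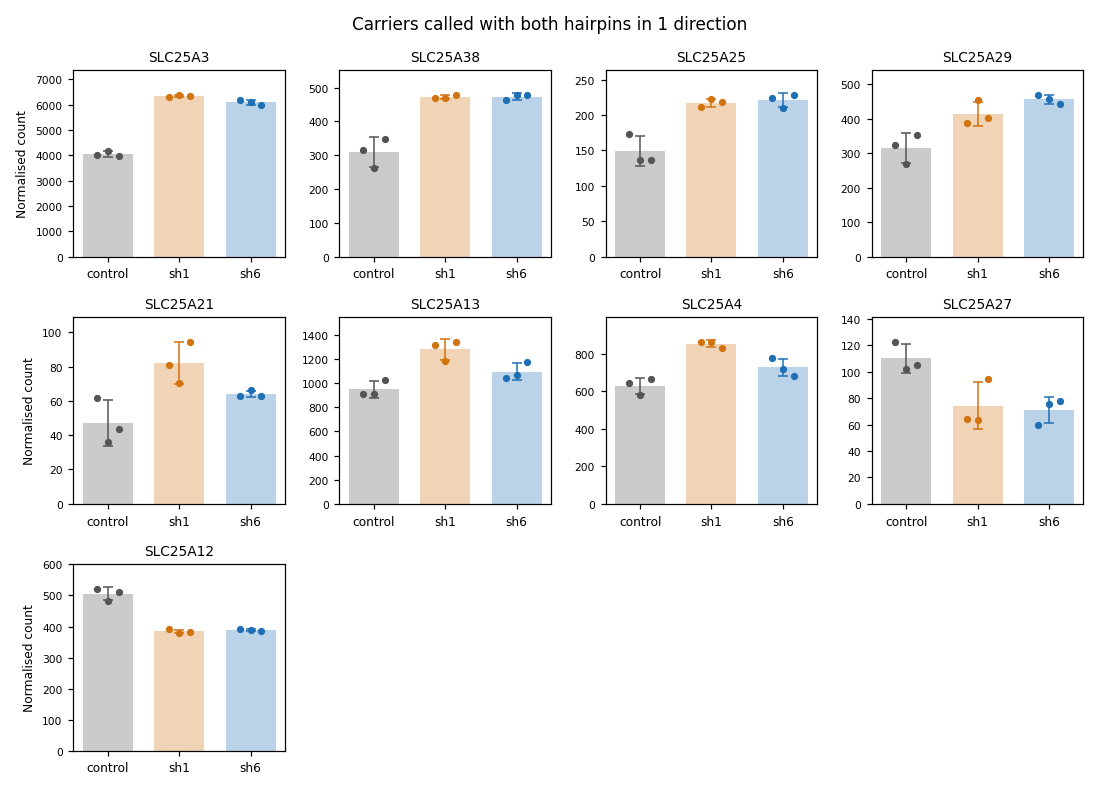
Normalised counts of 9 carriers that changed in the same direction with both hairpins; bars are group means, error bars the SD of 3 libraries and points the libraries, on axes that start at 0. Only carriers with all 6 hairpin libraries on 1 side of the 3 controls were chosen, so that separation is part of the choice. They lie above the controls for 7 carriers and below them for SLC25A12 and SLC25A27.

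Carriers of di- and tricarboxylates move citrate, malate and 2-oxoglutarate across the membrane, and all 4 were tested. SLC25A1 exports citrate, the source of cytosolic acetyl-CoA for fatty acid synthesis. Its normalised counts were 1183, 1017 and 1107 in the controls, 677, 654 and 658 with sh1 and 1319, 1164 and 1120 with sh6. The sh1 libraries were far below the rest, while sh6 and control overlapped. SLC25A1 fell 1.66-fold with sh1 (log2 change -0.68 ± 0.0661, adjusted p = 2.66e-10), differed from the control by 0.12 with sh6 (adjusted p = 0.12), and was higher with sh6 than sh1 by 0.80 (adjusted p = 9.37e-12). SLC25A10, the dicarboxylate carrier exchanging malate or succinate for phosphate, had 897, 874 and 1039 in the controls, 891, 923 and 910 with sh1 and 1628, 1363 and 1339 with sh6. Here the sh6 libraries stood above the rest, 1.54-fold over the control (log2 change 0.59, adjusted p = 9.99e-09), with a change of -0.04 with sh1 (0.653) and a difference of 0.63 between hairpins (4.5e-09).

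The carriers of 2-oxo acids rose with both hairpins. SLC25A11, the malate/2-oxoglutarate carrier and the other limb of the malate-aspartate shuttle, had 661, 645 and 723 normalised counts in the controls, 793, 800 and 766 with sh1 and 801, 809 and 737 with sh6. Its hairpin groups overlapped each other and not the controls, both at 1.16-fold (log2 changes 0.20 and 0.19, adjusted p = 0.00793 and 0.00879). SLC25A21, the 2-oxoadipate carrier of lysine breakdown, had the lowest control level per kilobase of the tested carriers, 16.9 normalised counts. Its normalised counts were 61.9, 35.8 and 43.4 in the controls, 81.2, 70.1 and 94.6 with sh1 and 62.6, 66.1 and 63.1 with sh6. Control replicate 1 came close to the lowest sh6 library. The rise was 1.74-fold with sh1 (log2 change 0.46, adjusted p = 0.000306) and 1.36-fold with sh6 (0.25, adjusted p = 0.032); the deposited scale compresses low counts, so these log2 changes are smaller than the folds. The sh6 call was lost without control replicate 2 (adjusted p = 0.195), control replicate 3 (0.0744), sh6 replicate 1 (0.0536), sh6 replicate 2 (0.0777) or sh6 replicate 3 (0.0568), with no filter on low values (0.184) and with array weights (0.185).

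Nucleotide, vitamin and cofactor carriers moved in both directions. Of 9 tested from 10, 2 rose and 1 fell with sh1, and 2 rose and 3 fell with sh6, with medians of 0.07 and 0.03 on the log2 scale. These calls were 33.3% and 55.6% of the 9, beside 58.9% and 67.8% of all genes. Carriers of coenzyme A, NAD and folate differed between hairpins. SLC25A42, which imports coenzyme A, had normalised counts of 139, 111 and 123 in the controls, 66.7, 69.3 and 66.5 with sh1 and 176, 148 and 127 with sh6. Its sh1 libraries were tightly grouped below all others, a 1.84-fold fall (log2 change -0.56, adjusted p = 7.21e-06), and sh6 was 2.22-fold higher than sh1 (0.75, adjusted p = 5.13e-08). With sh6 the change of 0.19 against the control had adjusted p = 0.0742, and was called without control replicate 1 (0.0400) or sh6 replicate 3 (0.0195) and with centred values (0.0427). SLC25A51, the mitochondrial NAD carrier, had 508, 491 and 523 in the controls, 591, 545 and 539 with sh1 and 378, 371 and 371 with sh6. All sh6 libraries were below all controls, a 1.36-fold fall (log2 change -0.39, adjusted p = 8.06e-06), and below sh1 by -0.51 (1.23e-07); with sh1 the change was 0.12 (0.117, and 0.0476 with no filter on low values). SLC25A32, a carrier of folate and riboflavin derivatives, had 1225, 1274 and 1289 in the controls, 1233, 1199 and 1255 with sh1 and 1408, 1409 and 1418 with sh6. The sh6 libraries were higher by 1.12-fold (log2 change 0.15, adjusted p = 0.0154, and 0.0737 without control replicate 1), with a difference of 0.19 from sh1 (0.00382).

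SLC25A26, the S-adenosylmethionine carrier, had 164, 182 and 186 normalised counts in the controls, 214, 197 and 209 with sh1 and 138, 131 and 150 with sh6, so that the control lay between the hairpins without overlap. Its fall with sh6 was called (log2 change -0.25, adjusted p = 0.00764), the sh1 change of 0.17 was not (0.0722), though it was with values centred on each library's median (0.0483), a variance prior without a trend (0.0324) or array weights (0.00586), and the hairpins differed by -0.43 (4.97e-05). SLC25A16 fell with sh6 (-0.32, adjusted p = 0.00187) from a mean level per kilobase of 23.5 normalised counts to 17.2. SLC25A33, a pyrimidine nucleotide carrier, rose with sh1 by 0.22 (adjusted p = 0.00949, and 0.0659 without sh1 replicate 3), and differed by -0.19 between hairpins (0.0239). That difference was not called without sh1 replicate 3 (0.125), sh6 replicate 1 (0.0826) or sh6 replicate 3 (0.0991). It was lost, too, with no filter (0.0791) or array weights (0.0564). Its paralogue SLC25A36 and the peroxisomal SLC25A17 were called in no comparison, with log2 changes between 0.00 and 0.07 against the control.

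The mitoferrins bring iron into the matrix, and SLC25A39 and SLC25A40 carry glutathione. In this group of 4 the largest change of the whole family was found, in SLC25A37 (mitoferrin-1). It had normalised counts of 1630, 1706 and 1266 in the controls, 1233, 1377 and 1203 with sh1 and 770, 698 and 663 with sh6. The sh1 libraries overlapped the controls through control replicate 3, and the sh6 libraries were well below every other. The fall with sh6 was 2.16-fold (log2 change -1.04 ± 0.0784, adjusted p = 6.16e-13) and sh6 was below sh1 by -0.79 (4.99e-10). With sh1 it was 1.21-fold (-0.25, adjusted p = 0.00692), a call lost without control replicate 1 (0.0541) or control replicate 2 (0.0653) and with no filter on low values (0.212).

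SLC25A28 (mitoferrin-2) had 386, 340 and 358 in the controls, 389, 444 and 434 with sh1 and 320, 317 and 356 with sh6. The sh1 libraries were the highest, and those of sh6 overlapped the controls. Its rise with sh1 (log2 change 0.19, adjusted p = 0.028) was lost without control replicate 2 (0.107), sh1 replicate 2 (0.118) or sh1 replicate 3 (0.0933), with no filter (0.0811) and with array weights (0.0558). The sh6 change was -0.11 (0.196), or -0.17 with array weights (0.0223), and the hairpins differed by -0.30 (0.000897). SLC25A39 was close to its control level in all groups, with 3409, 3446 and 3210 in the controls, 3232, 3332 and 3207 with sh1 and 3578, 3063 and 3092 with sh6. Its changes of -0.04 and -0.05 were not called (adjusted p = 0.553 and 0.447), although the one with sh6 was without sh6 replicate 1 (-0.12, 0.0473) or with array weights (-0.11, 0.0298). SLC25A40 fell with sh6 by -0.16 (adjusted p = 0.0446), and that call was lost on leaving out control replicate 1 (0.149), control replicate 2 (0.0915), sh1 replicate 1 (0.0551), sh1 replicate 2 (0.0528), sh1 replicate 3 (0.0563), sh6 replicate 1 (0.115) or sh6 replicate 3 (0.0768). Centred values (0.0953) or a fit of only the 2 groups compared (0.0715) also ended it.

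The relatives of the uncoupling proteins went separate ways. SLC25A27, also called UCP4 and best known in brain, had normalised counts of 123, 102 and 105 in the controls, 64.5, 63.4 and 94.5 with sh1 and 59.4, 75.4 and 77.6 with sh6. All hairpin libraries were below the controls, though sh1 replicate 3 came near them, with falls of 1.48-fold and 1.55-fold (log2 changes -0.37 and -0.41, SE 0.102, adjusted p = 0.00231 and 0.000827). The sh1 call was lost with no filter on low values (0.0698). SLC25A14 had 167, 243 and 220 in the controls, 319, 335 and 308 with sh1 and 202, 240 and 207 with sh6. Its sh1 libraries alone were raised, 1.52-fold over the control (log2 change 0.51, adjusted p = 1.76e-05), with a difference of -0.47 between hairpins (5.26e-05). The sh6 change of 0.04 was not called (0.718), whereas with array weights it was 0.23 and called (0.0102). SLC25A30 had 111, 126 and 124 in the controls, 92.2, 104 and 110 with sh1 and 165, 183 and 184 with sh6. There the sh6 libraries alone were raised, 1.47-fold (log2 change 0.41, adjusted p = 0.000134), and they exceeded sh1 by 0.57 (1.63e-06), while the sh1 change of -0.16 was not called (0.115).

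The remaining carriers have substrates that are less settled, and all 4 tested were called lower with sh6 than with sh1, beside 28.9% of all genes. SLC25A46, which is tied to mitochondrial fusion and cristae and mutated in an optic atrophy with neuropathy, had normalised counts of 1213, 1302 and 1099 in the controls, 1709, 1665 and 1690 with sh1 and 978, 1062 and 1041 with sh6. The 3 groups did not overlap, with sh1 above the controls and sh6 below. The change was a 1.40-fold rise with sh1 (log2 change 0.47 ± 0.0612, adjusted p = 9.52e-08) and a 1.17-fold fall with sh6 (-0.22, adjusted p = 0.00261), and the hairpins differed by -0.685 (4.84e-11). SLC25A45 had 98.5, 111 and 90.2 in the controls, 189, 176 and 162 with sh1 and 104, 108 and 91.2 with sh6. Its sh1 libraries stood clear of the other 6, a 1.75-fold rise (log2 change 0.58, adjusted p = 1.92e-06), and the hairpins differed by -0.57 (2.57e-06). SLC25A43 fell with sh6 from 811, 849 and 862 to 620, 718 and 620 (log2 change -0.34, adjusted p = 4.1e-05), below its sh1 counts of 946, 858 and 929. Its sh1 change of 0.11 was not called (0.162), whereas with array weights it was 0.14 and called (0.0212). SLC25A35 fell with sh6 as well (-0.31, adjusted p = 0.005, but 0.0602 with no filter on low values). Its difference between hairpins (-0.22, adjusted p = 0.0443) was lost without sh1 replicate 1 (0.128), sh1 replicate 2 (0.137), sh6 replicate 1 (0.0917), sh6 replicate 2 (0.0945) or sh6 replicate 3 (0.0579), and with no filter (0.187), centred values (0.0508) or voom (0.0568).

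**Figure D4:**
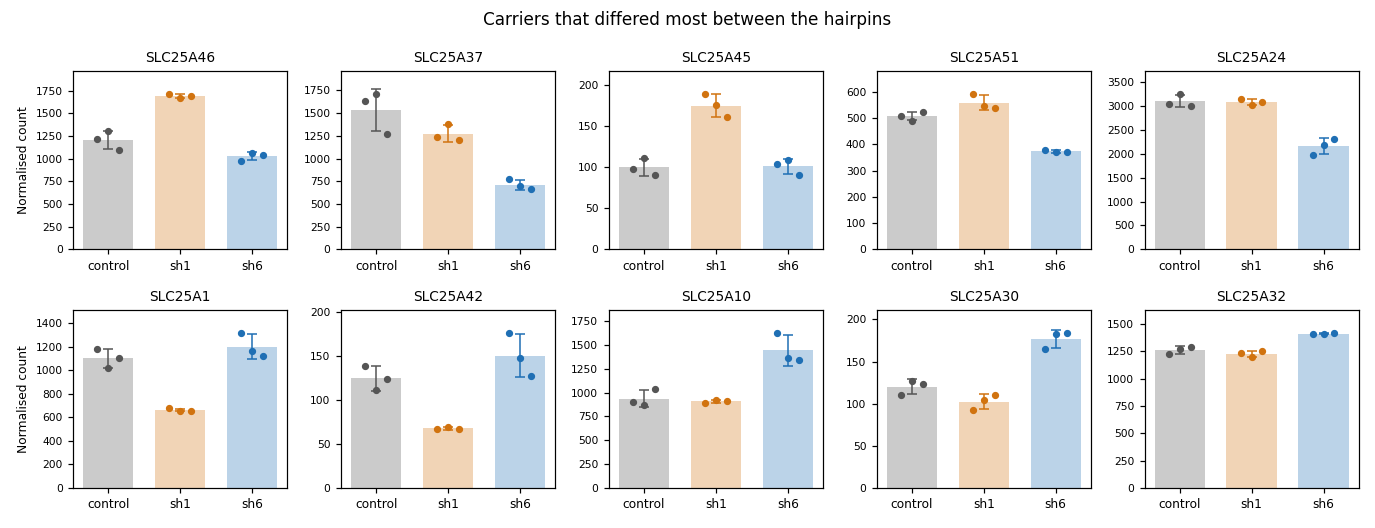
Normalised counts of the 10 carriers with the largest called differences between the hairpins, 5 in each direction; bars are group means, error bars the SD of 3 libraries and points the libraries, on axes that start at 0. SLC25A1 and SLC25A42 are low with sh1 alone, SLC25A10 and SLC25A30 are high with sh6 alone, and SLC25A46 lies above the controls with sh1 and below them with sh6.

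The filter on low values left 10 members untested. SLC25A2, SLC25A6 and SLC25A48 were listed at 0 in all 9 libraries. For SLC25A2, an ornithine carrier, and SLC25A48, a count of 0 allows up to 3 reads per library, or 2.64 to 3.23 normalised counts, counting error only. SLC25A6 is an ADP/ATP carrier of the pseudoautosomal region shared by the X and Y chromosomes, and 17 of the 18 protein-coding genes of these regions were likewise at 0 in all libraries, beside 15.8% of 18845 protein-coding symbols in the table. Whether its 0 reflects the cells or the counting was not tested, and no level is drawn from it. SLC25A18 (4.39 to 17.1 normalised counts), SLC25A34 (2.13 to 8.94) and SLC25A53 (1.76 to 21.6) were detected in every library. SLC25A31, a germ cell ADP/ATP carrier, was above 0 in 2 libraries, SLC25A41 in 5, SLC25A47 in 2 and SLC25A52, a near copy of SLC25A51, in 1.

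Genes that act beside the carriers were read from lists, described by their counts; the members of these lists that are named for a single hairpin or for opposite calls were chosen after their values were seen. Of family members with other symbols 4 were tested, and UCP2 fell with sh1 from a mean of 4006 to 2778 normalised counts (log2 change -0.51, adjusted p = 2.2e-08), while its sh6 change was -0.13 (0.071). Carriers reach the inner membrane through the TIM22 complex and its small chaperones. The list for this route also held TOMM70, and 9 of its genes were tested. With sh1, 2 rose and 3 fell (55.6% called, beside 58.9% of all genes). With sh6, 6 rose and 2 fell (88.9%, beside 67.8%). TIMM22, the channel of that complex, fell with sh1 (-0.36, adjusted p = 0.0008) and rose with sh6 (0.35, 0.00083), as did its subunit AGK (-0.58 and 0.35) and the chaperone TIMM13 (-0.20 and 0.32). TIMM8A was the single gene of the list to rise with both. Of 13 other inner membrane transporters, SFXN2, SFXN5, ABCB8 and LETM1 rose and MPC2 and SLC8B1 fell with both hairpins. Of all genes, 18.9% were called higher and 19.4% lower with both. SFXN2 had the largest rise, from a mean of 95 to 170 and 199 normalised counts (log2 changes 0.59 and 0.76).

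Enzymes that use the substrates of the carriers moved as follows. In the malate-aspartate shuttle, GOT2, the mitochondrial aspartate transaminase, rose with both hairpins (log2 changes 0.38 and 0.50, adjusted p = 1.6e-07 and 3.9e-10), and its cytosolic counterpart GOT1 fell with sh6 (-0.45, 1.8e-07). Among 5 genes of citrate use, ACO1, the cytosolic aconitase, fell with both (-0.17 and -0.20), FASN, fatty acid synthase, fell with sh1 (-0.79, adjusted p = 3e-12) and changed by -0.11 with sh6 (0.12), and ACLY, which cleaves citrate in the cytosol, rose with sh6 (0.34, 2.3e-06). Of 8 genes of ornithine, arginine and proline metabolism, 3 rose and 2 fell with both hairpins, beside 18.9% and 19.4% of all genes. Those that rose were ALDH18A1, PYCR1 and PYCRL of proline synthesis. PRODH, which breaks proline down, was 1 of the 2 that fell, by -1.18 and -1.97.

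Of 11 genes of haem and iron-sulphur cluster synthesis, 3 rose and 4 fell with sh1 (63.6% called, beside 58.9% of all genes), and 4 rose and 2 fell with sh6 (54.5%, beside 67.8%). NFS1 and FDXR, which act in iron-sulphur cluster assembly, were among the genes that rose with both. FECH, the enzyme that inserts iron into haem, fell with sh1 (-0.59, adjusted p = 1.1e-08) and rose with sh6 (0.65, 1.2e-09), and CPOX fell with sh1 (-1.25, 7.8e-16). In the 6 tested genes of mitochondrial folate and glycine metabolism, MTHFD1L rose with both (0.23 and 0.16) and 3 fell with sh6: SHMT2 (-0.42), MTHFD2 (-0.61) and ALDH1L2 (-1.33). Of all genes, 33.6% were called lower with sh6. Of 8 glutathione genes, 2 rose and 3 fell with sh1 (62.5% called, beside 58.9% of all genes). With sh6, 2 rose and 2 fell (50% called, beside 67.8% of all genes). GCLC, the catalytic subunit of the first enzyme of synthesis, was the 1 gene of the list to rise with both (0.39 and 0.73). A rise with both was called for 18.9% of all genes. Of the 3 voltage-dependent channels of the outer membrane, VDAC1 rose with sh1 (0.13) and fell with sh6 (-0.13), VDAC3 fell with sh1 (-0.14), and VDAC2 was called with neither. 

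In the authors' deposited table, which also holds an adjusted p of a comparison whose samples are not stated, 40 of the carriers had an adjusted p and 15 were under 0.05, 12 as higher and 3 as lower. All 15 carriers in the authors' deposited table were those called here with both hairpins in the same direction.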

How the data were processed

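RNA of 9 libraries (3 scrambled control, 3 sh1, 3 sh6, grouped by the sample titles) was sequenced as paired-end 100 bp reads, per the labels' protocols. Per the submitters' processing notes, the authors used cutadapt, STAR, Salmon, DESeq2 and the hg19 build; no version, setting or strand option is given in the sources used here. The authors deposited 1 table of 27315 genes with variance-stabilised values on a log2-like scale, whose name calls them batch-corrected, with a floor of 5.02. A log2 fold change and an adjusted p-value per gene are in the deposited table too, for a comparison it does not describe.

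The transformation was inverted to give normalised counts. What 1 read is worth in each library was taken from the steps of low values, of which 76.5% to 80.3% per library were whole within 0.05 reads. Genes with a mean at least 1 above the floor (a normalised count of 16.2) were kept. limma 3.58.1 in R 4.3.3 (lmFit, eBayes with a mean trend, two-sided) was fitted to the deposited log2 values of all 9 libraries in 1 model of 3 groups, with Benjamini-Hochberg adjustment over the 13165 genes kept and a call at an adjusted p under 0.05. Fold changes are ratios of mean normalised counts, log2 changes are differences of deposited values, which understate changes of low genes. Transcript lengths came from GENCODE 29 and promoters from RefSeq, both on GRCh38, so no coordinate of the authors' build is used. The carriers and lists were chosen with earlier results of these data known. The carriers given in full were, by rule, the 8 largest rises and the falls called with both hairpins with all 6 hairpin libraries outside the controls, those called in opposite directions and the 5 largest differences each way between hairpins; the others were added to cover each role. Some genes that the rule or a list would name are not reported here.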

Additional observations from a re-analysis of the deposited data

Results flagged for a closer look

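SLC25A46 differed between the hairpins under the same comparison: it was called higher than the control with sh1 (log2 change 0.47) and lower with sh6 (-0.22), and the test of sh6 against sh1 gave -0.685 (SE 0.0612, adjusted p = 4.84e-11 in limma, n = 3 per group). All 3 sh1 libraries were above and all 3 sh6 libraries below the 3 controls.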

How the results depend on the processing

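The number of carriers called the same way with both hairpins was 15. With no filter on low values it was 8, all among the 15. The cause was not tested. Over the other alternatives that number ran from 12 to 16. With no filter, 47 carriers were tested rather than 37, and 27315 genes rather than 13165. Of all genes, 6534 were then called with sh1 and 8171 with sh6, against 7760 and 8922 with the filter. Leaving out each library in turn gave 12 to 15 carriers with both hairpins, 21 to 24 with sh1 and 24 to 26 with sh6. It gave 20 to 22 carriers between the hairpins and 20 to 25 for the mean of both. Over all genes it gave 7000 to 8014 calls with sh1 and 8337 to 8889 with sh6. Other filters, scalings, variance priors, weights and thresholds gave 18 to 25 carriers with sh1 and 22 to 29 with sh6. They gave 20 to 23 carriers between hairpins and 21 to 28 for the mean of both. Over all genes these settings gave 6382 to 8784 calls with sh1 and 7693 to 9554 with sh6. No carrier changed direction after being called. The fall of BBOX1 ran from -2.97 to -2.71 with sh1 and from -2.12 to -1.96 with sh6. Deviations from the group mean correlated at -0.128 to 0.176 between libraries of the same replicate number, with 3 of 9 pairs over 0.1. Pairs of different number ran from -0.183 to 0.168, with 2 of 18 over 0.1. Of the 9 samples, 5 correlated best with a library of their own number. The deposited values are named batch-corrected, so these correlations cannot show whether replicates shared a deviation before that step. With the replicate number as a block, 24 carriers were called with sh1, 27 with sh6, 22 between hairpins, 25 for the mean of both and 16 with both hairpins. With 3 libraries per group, carriers of few reads such as SLC25A21 had the largest standard errors.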
